A study of Saccharomyces cerevisiae with 8 samples.

Results

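Trehalose is a disaccharide that baker's yeast stores in large amounts and that protects membranes and proteins during freezing, drying and heat. It is made from UDP-glucose and glucose-6-phosphate by a complex in which Tps1 forms trehalose-6-phosphate, Tps2 removes the phosphate, and Tps3 and Tsl1 are regulatory subunits. It is split back into glucose by trehalases: Nth1, a cytosolic neutral trehalase that protein kinase A and 14-3-3 proteins activate, its close relative Nth2, and Ath1, the acid trehalase of the vacuole and cell surface. The 7 genes of synthesis and breakdown (TPS1, TPS2, TPS3, TSL1, NTH1, NTH2 and ATH1) were taken by name from 5656 genes that had a probe set of their own on the array. Each of the 7 had exactly 1 such probe set, so no choice between probe sets was needed, and all 7 passed the filter on dim probe sets, as did 5188 genes in all.

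The series measured messenger RNA in commercial Saccharomyces cerevisiae from compressed yeast, the pressed cake sold to bakers, whose strain the labels do not name. Cells at an OD600 of 30, in liquid fermentation medium that held neither sucrose nor maltose, were kept at -20 °C for 0, 3, 7 or 14 days. All groups share the thaw of 10 min at 30 °C. The labels give the 0 day samples the same wording with a storage of 0 days and do not say whether they passed through freezing at all. RNA came from whole suspensions of thawed cells, so fewer cells holding a transcript and less of it per cell cannot be told apart. Each time had 2 independent samples, read on 1 Affymetrix array each, which makes 8 arrays. Signals are probe set intensities after quantile normalisation. They set a gene against itself across arrays and do not rank one gene against another. The lowest signal of any of the 7 genes was 8.93, against a floor of 2.52 below which values were raised, so 0 of their values lay at the floor. TPS3 on array 2 of 7 days and ATH1 on array 2 of 0 days were dim all the same. Their log2 values of 3.16 and 3.71 lay under the filter cut of 4.16, which was applied to means over the arrays.

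Median deposited signals ran from 51.7 to 110 over the 8 arrays, and the precision is limited by 2 arrays per time. The 2 arrays of 0 days stood apart from each other (r = 0.877 across genes, which are not independent replicates). With the other arrays in turn, r ran from 0.861 to 0.884 for array 1 of 0 days. For array 2 it ran from 0.846 with array 1 of 14 days to 0.935 with array 1 of 3 days. These values do not tell which of the 2 is the unusual one. Ribosomal RNA signal, as a multiple of the median of its array, was 8.85 and 6.76 at 0 days, 7.73 and 11.3 at 3 days, 17.0 and 22.7 at 7 days, and 21.6 and 15.7 at 14 days. For the actin gene ACT1 the 3' probe set was brighter than the 5' one on every array, and a higher ratio goes with poorer RNA integrity. The factor was 1.54 and 2.86 at 0 days, 2.78 and 1.41 at 3 days, 2.16 and 1.70 at 7 days, and 2.23 and 2.01 at 14 days. It was highest on array 2 of 0 days. Arrays were also put into 2 sets by the signal of spiked poly(A) transcripts, the dimmer array of each time in set 1, a split added after the data were seen. Set 1 held array 1 of 0 days and array 2 of the other times. Of 9 mating and haploid genes measured as a check of cell state, 1 rose and 2 fell at 14 against 3 days, where 4.59% of all genes were called. MF(ALPHA)1 was at a log2 fold change of -3.65 and MFA1 at 2.28 (adjusted p = 0.0155 and 0.0229 in limma).

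None of the 7 genes differed between freezing times at an adjusted p under 0.05 in limma, with Benjamini-Hochberg adjustment over all 5188 genes. The nearest was TPS1 at 14 against 3 days, with a log2 difference of 2.20 ± 0.59 (SE, n = 2 per time) and a limma adjusted p of 0.0594. 3 genes of the synthase complex, TPS1, TPS2 and TSL1, shared a profile: low on both 3 day arrays, higher on both 14 day arrays, and split at 0 days, where array 1 was high and array 2 low. The trehalase genes NTH1, NTH2 and ATH1 had a different one, with their lowest array at 0 days and both 14 day arrays above both 0 day arrays. For NTH2 the nearest 14 and 0 day arrays were at 248 and 247. For TPS3 every pair of times overlapped, and NTH2 varied least. Shares of all genes without overlap were counted only for single comparisons, not for orders over several times.

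**Figure D1:**
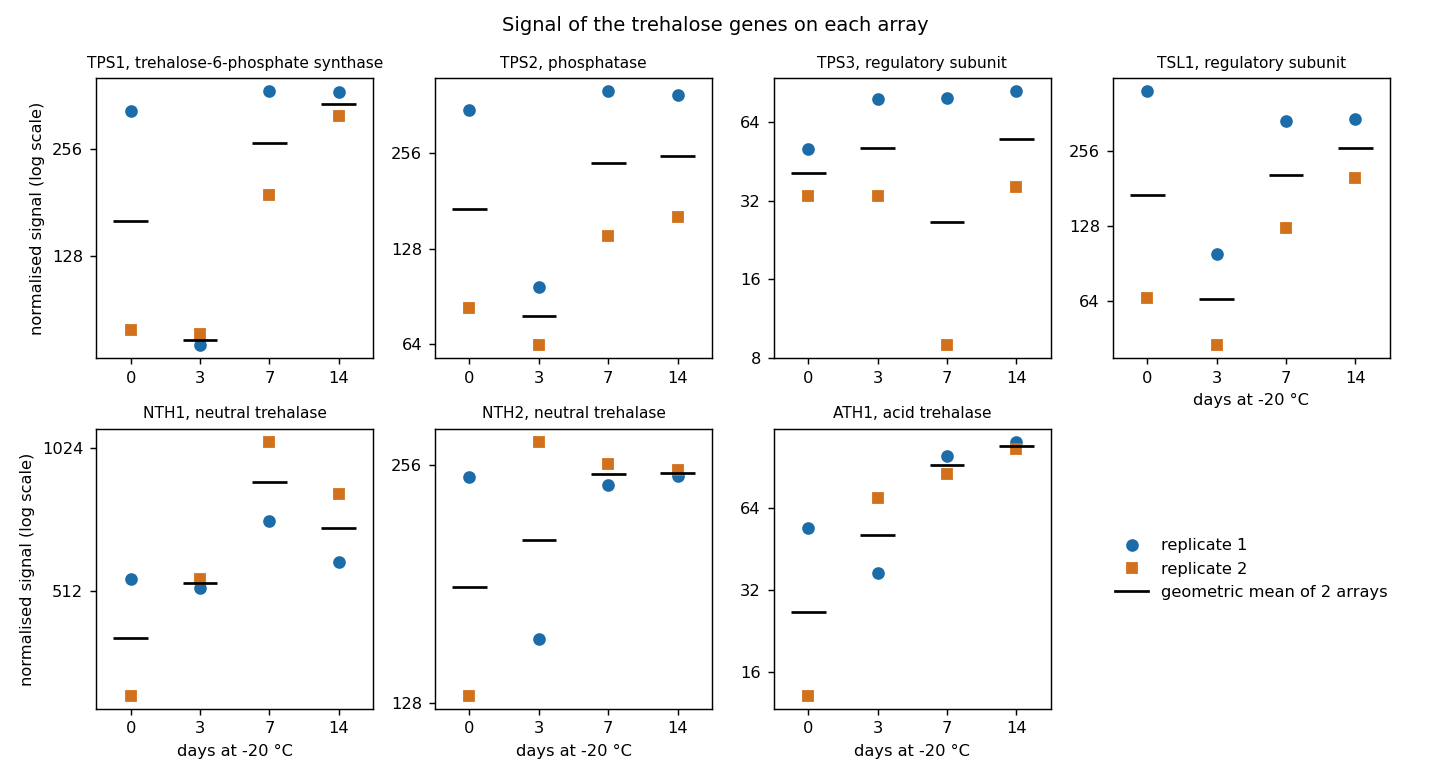
Normalised signal (log axis, its own range in each panel) of each trehalose gene against days at -20 °C, with 1 point per array and a line at the geometric mean of 2 arrays. TPS1, TPS2 and TSL1 are lowest at 3 days, and the 0 day arrays lie far apart for these genes and for ATH1.

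TPS1, the catalytic subunit that makes trehalose-6-phosphate (YBR126C), had normalised signals of 326 and 79.4 at 0 days, 71.9 and 77.1 at 3 days, 372 and 190 at 7 days, and 369 and 317 at 14 days, for arrays 1 and 2 in turn. Both 3 day arrays lay below every other array, although array 2 of 0 days was above them by little. In log2 units the mean was 7.33 ± 1.44 at 0 days, 6.22 ± 0.07 at 3 days, 8.05 ± 0.69 at 7 days and 8.42 ± 0.16 at 14 days (SD, n = 2 each). In rising order of the means, 3 and 0 days did not overlap, while 0 and 7 days, and 7 and 14 days, did. Against 0 days, the log2 fold change was -1.11 ± 0.59 (SE) after 3 days, 0.72 after 7 days and 1.09 after 14 days (limma adjusted p = 0.704, 0.536 and 0.306). The 14 day value rested on 1 array of 0 days: it was 2.15 without array 1 of 0 days, where it passed the threshold (limma adjusted p = 0.0428), and 0.07 without array 2. Over all 4 times the moderated F test gave TPS1 an unadjusted p of 0.0164 (limma adjusted p = 0.143) and ATH1 one of 0.0328 (limma adjusted p = 0.189). These 2 of the 7 genes were under 0.05 unadjusted, as were 21.4% of all genes, and 0 of the 7 were called by that test, where 2.58% of all genes were.

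TPS2, the phosphatase of the complex (YDR074W), had signals of 350 and 83.4 at 0 days and 96.9 and 63.4 at 3 days. At 7 days they were 402 and 141, and at 14 days 391 and 161. All 4 arrays of 7 and 14 days lay above both 3 day arrays, but arrays 1 and 2 differed by more than 2-fold within 0, 7 and 14 days. The log2 means were 7.42 ± 1.46 at 0 days, 6.29 ± 0.43 at 3 days, 7.89 ± 1.07 at 7 days and 7.97 ± 0.90 at 14 days (SD, n = 2 each), and all neighbours in rising order overlapped. Against 0 days, the log2 fold change of TPS2 was -1.12 at 3 days, 0.48 at 7 days and 0.55 at 14 days, each with an SE of 0.71 (limma adjusted p = 0.740, 0.753 and 0.686). The 14 day value was -0.47 without array 2 of 0 days and 1.62 without array 1.

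TSL1, a regulatory subunit (YML100W), spanned the widest range of the 7 genes, 3.40 on the log2 scale, and 93.1% of all genes tested spanned no more. Its signals were 447 and 65.3 at 0 days, 99.1 and 42.3 at 3 days, 337 and 125 at 7 days, and 345 and 200 at 14 days. The highest signal of TSL1 was thus at 0 days, on array 1, and array 2 of 0 days lay between the 3 day arrays. Log2 means were 7.42 ± 1.96 at 0 days, 6.02 ± 0.87 at 3 days, 7.68 ± 1.01 at 7 days and 8.04 ± 0.56 at 14 days (SD, n = 2 each), and neighbours overlapped throughout. Log2 fold changes against 0 days were -1.40, 0.27 and 0.62 at 3, 7 and 14 days, each with an SE of 0.81 (limma adjusted p = 0.717, 0.891 and 0.694). Without array 2 of 0 days the 14 day value was -0.77, and without array 1 it was 2.05.

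TPS3, the other regulatory subunit (YMR261C), did not follow this profile. Its signals were 50.2 and 33.4 at 0 days, 78.6 and 33.2 at 3 days, 78.8 and 8.93 at 7 days, and 84.0 and 36.0 at 14 days. Array 1 was higher than array 2 at every time, by 3.14 on the log2 scale at 7 days, and every pair of times overlapped. In log2 units TPS3 averaged 5.36 ± 0.42 at 0 days, 5.67 ± 0.88 at 3 days, 4.73 ± 2.22 at 7 days and 5.78 ± 0.86 at 14 days (SD, n = 2 each). Its log2 fold changes against 0 days were 0.32, -0.63 and 0.43, each with an SE of 0.92 (limma adjusted p = 0.944, 0.751 and 0.828). The 95% interval at 14 days, from -1.61 to 2.46 without adjustment for the number of genes, spans more than a 2-fold change each way.

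NTH1, the main neutral trehalase (YDR001C), had signals of 542 and 309 at 0 days and 521 and 545 at 3 days. At 7 days it had 718 and 1053, and at 14 days 588 and 820. All 4 arrays of 7 and 14 days lay above all 4 of 0 and 3 days, which was not counted over all genes. The log2 means were 8.68 ± 0.57 at 0 days, 9.06 ± 0.04 at 3 days, 9.76 ± 0.39 at 7 days and 9.44 ± 0.34 at 14 days (SD, n = 2 each). In rising order, 3 and 14 days did not overlap, while 0 and 3 days, and 14 and 7 days, did. At 7 days NTH1 stood 1.09 ± 0.40 (log2, SE) above 0 days, a 2.12-fold higher signal with an unadjusted p of 0.0206, but a limma adjusted p of 0.187. At 3 days it was 0.38 and at 14 days 0.76 (limma adjusted p = 0.838 and 0.288). Its values at 7 and 14 days stayed above 0 in all 20 alternatives, from 0.68 to 2.11 at 7 days and from 0.36 to 1.31 at 14 days. The 7 and 14 day arrays of NTH1 did not overlap those of 0 days, so most alternatives could not turn this sign. The values 2.11 and 1.31 came from deposited values with no normalisation, where the median of all genes was shifted upward as well.

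NTH2, the second neutral trehalase (YBR001C), varied least. Its signals were 247 and 130 at 0 days, 154 and 274 at 3 days, 242 and 257 at 7 days, and 248 and 252 at 14 days. Its range of 1.07 on the log2 scale ran from array 2 of 0 days to array 2 of 3 days, and 19.8% of all genes tested spanned no more. Log2 means were 7.49 ± 0.65 at 0 days, 7.68 ± 0.59 at 3 days, 7.96 ± 0.06 at 7 days and 7.97 ± 0.02 at 14 days (SD, n = 2 each), with all neighbours overlapping. Both 14 day arrays were above both 0 day arrays, the nearest pair at 248 and 247. Against 0 days, the log2 fold change of NTH2 was 0.19, 0.47 and 0.48 at 3, 7 and 14 days, each with an SE of 0.43 (limma adjusted p = 0.927, 0.582 and 0.541). The 7 and 14 day values were 0.013 and 0.018 without array 2 of 0 days, and 0.96 and 0.96 without array 1. The 95% interval at 14 days ran from -0.47 to 1.43. NTH1 and NTH2 are related in sequence, and binding of one transcript to the probe set of the other was not tested.

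ATH1, the acid trehalase (YPR026W), had the largest difference from 0 days of the 7 genes. Its signals were 54.3 and 13.1 at 0 days, 37.1 and 69.6 at 3 days, 99.6 and 85.4 at 7 days, and 112 and 105 at 14 days. Both arrays of 14 days lay above both of 7 days, and these above both of 3 days, whereas 3 and 0 days overlapped. How many of all genes show such an order was not counted, so it cannot be called particular to ATH1. Log2 means were 4.74 ± 1.45 at 0 days, 5.67 ± 0.64 at 3 days, 6.53 ± 0.16 at 7 days and 6.76 ± 0.06 at 14 days (SD, n = 2 each). At 14 days ATH1 was 4.07-fold higher than at 0 days (log2 fold change 2.03 ± 0.63 SE, unadjusted p = 0.00859, limma adjusted p = 0.108), and at 7 days 3.46-fold higher (1.79, unadjusted p = 0.0166, limma adjusted p = 0.178). The difference at 3 days was 0.93 (limma adjusted p = 0.761). The size depended on array 2 of 0 days, the lowest value of the gene: without it the 14 day value was 1.0, and without array 1 it was 3.09 and passed the threshold (limma adjusted p = 0.0193). With a pseudocount of 16 in place of the floor, the 14 day value of ATH1 was 1.46. It stayed above 0 in all 19 alternatives in which ATH1 was tested. The 14 and 0 day arrays did not overlap, so most alternatives could not turn this sign.

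**Figure D2:**
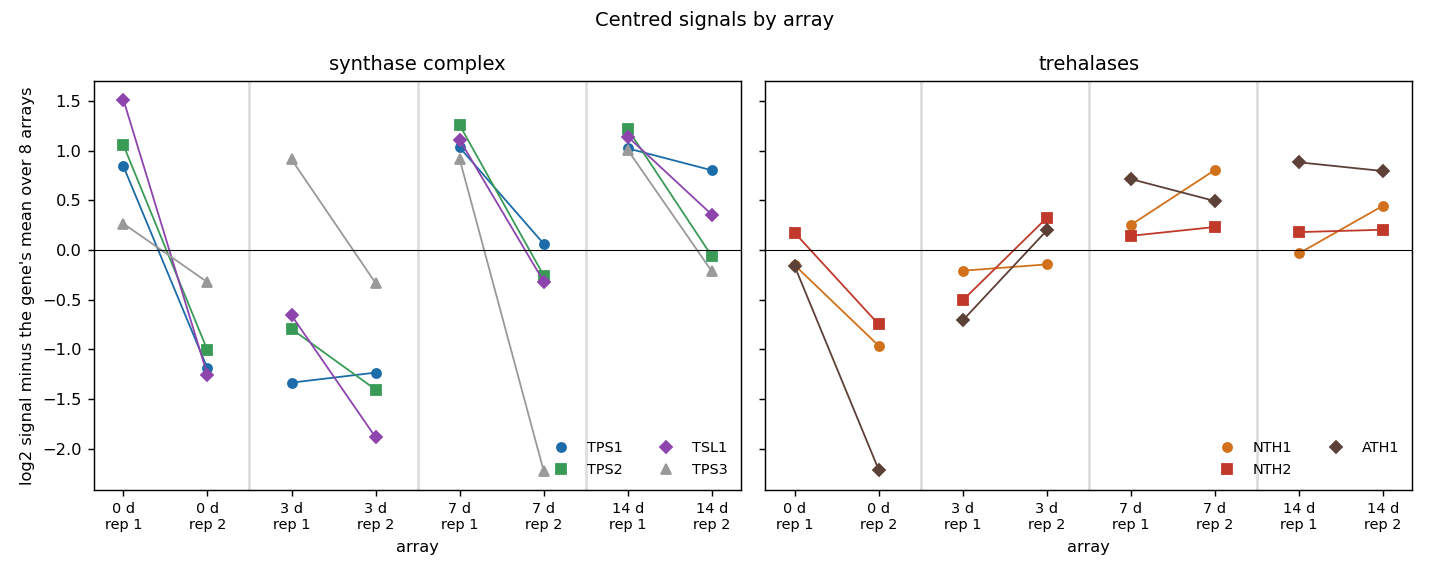
Log2 signal of each trehalose gene minus its own mean over 8 arrays, for the synthase complex (left) and the trehalases (right), with arrays of the same time joined by a line. TPS1, TPS2 and TSL1 run together, with gaps of 2.04, 2.07 and 2.77 between the 0 day arrays, while TPS3 is far below its mean on array 2 of 7 days.

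The duplicates of 0 days disagreed more over these genes than over the transcriptome. All 7 genes were lower on array 2 of 0 days than on array 1, as were 48.0% of all genes tested. The median gap was 2.04 on the log2 scale for the 7 genes, against 0.56 for all genes. Gaps at 3, 7 and 14 days had medians of 0.83, 0.97 and 0.48 for the 7 genes, against 0.44, 0.38 and 0.42 for all genes. The genes share their arrays, so they are not independent measures of this gap. The 2 arrays also differed in the 3' to 5' ratio of ACT1, 1.54 and 2.86, whose part in the gap was not tested.

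The comparisons with 0 days share the same 2 arrays of 0 days. After 14 days, 0 of the 7 genes were called against 0 days, where 1.73% of all genes were called, and 1 had an unadjusted p under 0.05 (22.2% of all genes). All 7 lay above 0, as did 55.6% of all genes, with a median log2 fold change of 0.62, against 0.11 for all genes. Both 14 day arrays lay above both 0 day arrays for 3 genes, NTH1, NTH2 and ATH1, and for 28% of all genes. Within array set 1 the log2 difference was -0.04 for TPS1, -1.12 for TPS2, -0.48 for TPS3 and -1.16 for TSL1, and within set 2 it was 2.22, 2.23, 1.33 and 2.40 for the same genes in turn. The signs of the synthase genes thus depended on how arrays were paired, and TPS1 lay near 0 in set 1. With arrays of the same number paired instead, TPS1, TPS2 and TPS3 were higher at 14 days in both pairs. TSL1 was then lower at 14 days on array 1 and higher on array 2. The trehalases lay above 0 in both sets, with 0.60, 0.03 and 0.96 for NTH1, NTH2 and ATH1 in set 1, and 0.93, 0.93 and 3.10 in set 2. Their 14 and 0 day arrays did not overlap, so any pairing of arrays would give this sign.

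After 7 days, 0 of the 7 genes were called against 0 days in limma (0.212% of all genes), and 2, NTH1 and ATH1, had an unadjusted p under 0.05 (19% of all genes). The median of the 7 was 0.48, against 0.17 for all genes, and 6 of the 7 lay above 0, all but TPS3, as did 59% of all genes. Both 7 day arrays lay above both 0 day arrays for NTH1 and ATH1, and for 29.8% of all genes. Within set 1 and set 2, NTH1 differed by 0.96 and 1.22 and ATH1 by 0.65 and 2.93. TPS1 gave -0.78 in set 1 and 2.23 in set 2.

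After 3 days, 0 of the 7 genes were called against 0 days in limma, as were 0% of all genes, and 0 had an unadjusted p under 0.05 (7.02% of all genes). The smallest limma adjusted p of any gene was 0.215. TPS1, TPS2 and TSL1 lay between -1.40 and -1.11, and the other 4 genes, TPS3 and the trehalases, between 0.19 and 0.93. The values of TPS1, TPS2 and TSL1 rested on array 1 of 0 days: without it they were -0.096, -0.095 and -0.014, and without array 2 they were -2.12, -2.14 and -2.78. TPS1 was the only one whose arrays did not overlap, both lower at 3 days, which held for 14.2% of all genes. Within set 1 the differences of TPS1, TPS2 and TSL1 were -2.08, -2.46 and -3.40, but within set 2 they were -0.14, 0.22 and 0.60.

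**Figure D3:**
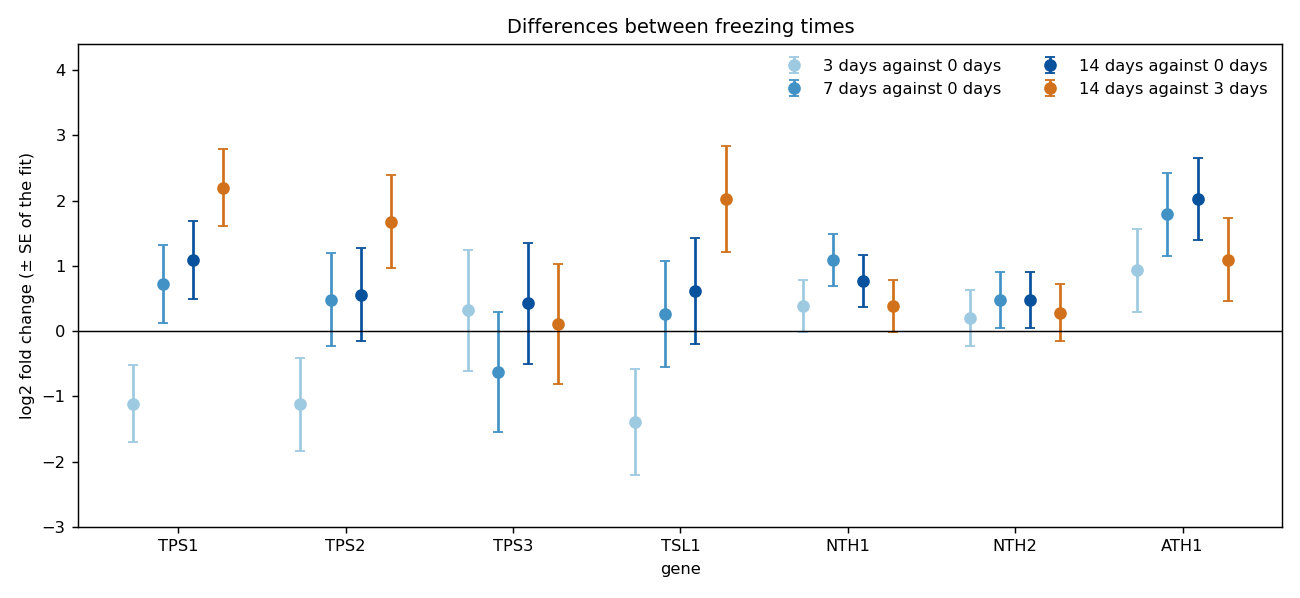
Log2 fold change of each trehalose gene in 4 comparisons of freezing times, with bars for the SE of the fit (n = 2 arrays per time). The values of TPS1, TPS2 and TSL1 are below 0 at 3 days and above 1.5 at 14 against 3 days, and ATH1 is highest among values against 0 days.

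The longest and the shortest storage at -20 °C were compared as well. The 0 day arrays enter this difference through the shared normalisation and the estimate of the spread. At 14 against 3 days, TPS1 was 4.59-fold higher (log2 fold change 2.20 ± 0.59 SE, unadjusted p = 0.00348, limma adjusted p = 0.0594). TSL1 was 4.06-fold higher (2.02 ± 0.81 SE, limma adjusted p = 0.157) and TPS2 3.20-fold higher (1.68 ± 0.71 SE, limma adjusted p = 0.176). These 3 genes had an unadjusted p under 0.05, which 24.6% of all genes had, and 0 of the 7 genes were called, where 4.59% of all genes were. TPS1 passed the threshold in 9 of 20 alternatives, among them those without array 1 or array 2 of 0 days (limma adjusted p = 0.0175 and 0.0191), but not without either array of 3 or 14 days (from 0.163 to 0.225). TPS2 and TSL1 each passed it in 1 of 20 alternatives, the one with the replicate number as a block (limma adjusted p = 0.0342 and 0.0318). ATH1 was at 1.10, NTH1 at 0.38, NTH2 at 0.28 and TPS3 at 0.11 (limma adjusted p = 0.317, 0.588, 0.727 and 0.959).

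Between 14 and 3 days, TPS1, TPS2 and TSL1 lay above 0 in both array sets. Their 14 and 3 day arrays did not overlap, so any pairing of arrays would give this sign. TPS1 differed by 2.04 within set 1 and 2.36 within set 2, TPS2 by 1.34 and 2.01, and TSL1 by 2.24 and 1.80. For ATH1 the values were 0.60 and 1.59, and for NTH2 -0.12 and 0.69. Both 14 day arrays lay above both 3 day arrays for 5 genes, all but TPS3 and NTH2, and for 28.6% of all genes. All 7 lay above 0, as did 50.9% of all genes, and the median of the 7 was 1.10, against 0.02 for all genes. Ribosomal RNA signals were also higher at 14 days than at 3 days, with the values given above, and their part in the difference was not tested.

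**Figure D4:**
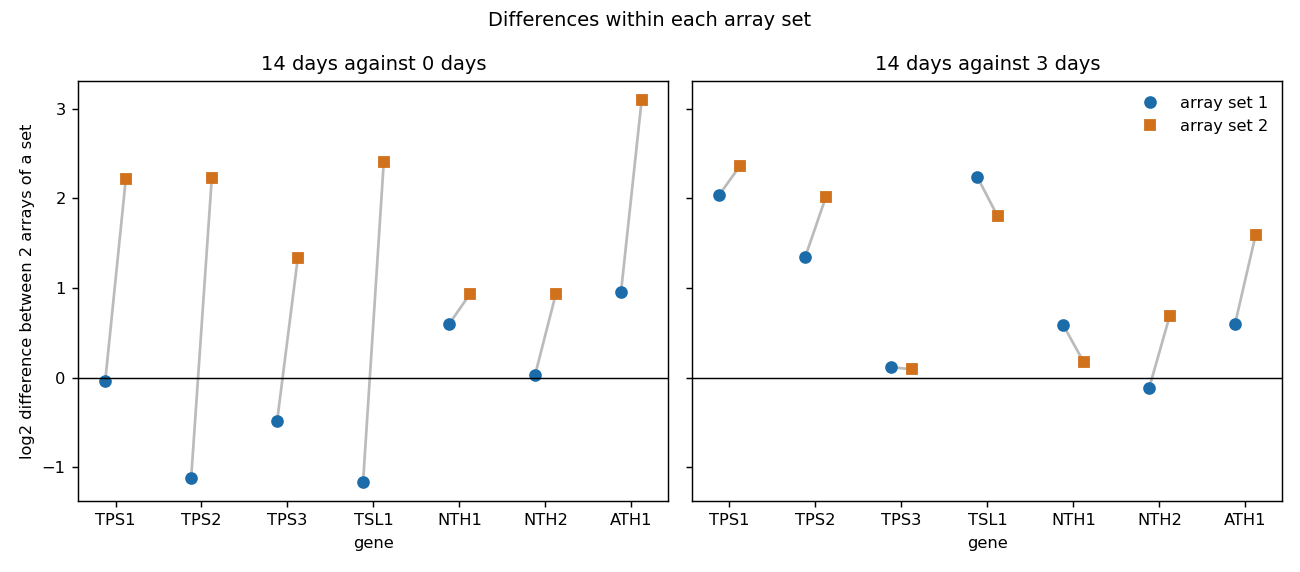
Log2 difference between 2 arrays of the same array set for each trehalose gene, at 14 against 0 days (left) and 14 against 3 days (right). The synthase genes lie below 0 in set 1 and above it in set 2 against 0 days, but above 0 in both sets against 3 days. Genes whose arrays do not overlap between the times share a sign in both sets whatever the pairing.

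Likeness of profiles was measured as the root mean square difference of log2 signals over the 8 arrays, each gene centred on its own mean. TPS2 and TSL1 differed by 0.30, which made TSL1 the 3rd nearest of 5187 genes to TPS2 and TPS2 the 4th nearest to TSL1. TPS2 was also the nearest of the 7 to TPS1 (0.41, rank 39). NTH1 and NTH2 differed by 0.34, which ranked NTH2 176 from NTH1 and NTH1 297 from NTH2. ATH1 was nearest to NTH1 (0.63, rank 275). TPS3 had no close neighbour among the 7, with TPS2 nearest at 1.07 and rank 1649. Over the 6 arrays of frozen samples only, a choice made after the values were seen, TSL1 and TPS2 differed by 0.27, with TSL1 at rank 23 from TPS2. TPS1 and TPS2 differed by 0.45 over these arrays, with TPS2 at rank 158 from TPS1. NTH1 and NTH2 still differed by 0.34 over these arrays, but each ranked much further from the other than over all 8 arrays. For ATH1 and NTH1 the difference was smaller over these arrays, but NTH1 likewise ranked much further from ATH1.

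Among all genes tested, the nearest to TPS1 were RTS3 (0.24) and MSC1 (0.25). The nearest to TPS2 were the maltose permease gene MAL31 (0.26) and GUT2, the mitochondrial glycerol-3-phosphate dehydrogenase (0.27). TSL1 lay closest to GAC1, which targets protein phosphatase 1 to glycogen synthase (0.24), and to the hexokinase gene HXK1 (0.26). TPS3 had only distant neighbours, FAS2 (0.52), a fatty acid synthase subunit, and NCE101 (0.52). The nearest to NTH1 were MET1 (0.08), which acts in siroheme synthesis, and TEP1 (0.09), and to NTH2 SLM4 (0.12) and FLC1 (0.15). YLL056C (0.26) and HUA1 (0.29) were nearest to ATH1. Over all genes the median difference ran from 0.62 for NTH2 to 1.26 for TSL1, so small values are easier to reach for the neutral trehalases.

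The other genes of the pathway were read from the same fit. Of 6 genes that supply glucose phosphates and UDP-glucose, 0 were called in limma in any of the comparisons, and 2 had an unadjusted p under 0.05 at 14 against 3 days (24.6% of all genes), where their median was 1.18, against 0.02 for all genes. PGM2, the main phosphoglucomutase, had signals of 246 and 88.1 at 14 days, against 78.0 and 3.09 at 3 days (log2 fold change 3.25, limma adjusted p = 0.175). HXK1 had 1952 and 1664 at 14 days, against 579 and 237 at 3 days (2.28, limma adjusted p = 0.134). Both also had a high array 1 and a low array 2 at 0 days, 383 and 50.6 for PGM2 and 2471 and 276 for HXK1.

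Of 4 listed transporters of the maltose type, 2 were measured and 0 called in limma, with 1 at an unadjusted p under 0.05 at 14 against 3 days (24.6% of all genes). MAL31 was at a log2 fold change of 1.74 at 14 against 3 days, and MAL11, whose product also takes up trehalose, at 0.85 (limma adjusted p = 0.158 and 0.475).

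Among 9 measured regulators that act on neutral trehalase, such as subunits of protein kinase A and 14-3-3 proteins, 0 were called in limma, with 1 at an unadjusted p under 0.05 in the F test (21.4% of all genes). TPK2, a catalytic subunit of protein kinase A, was at 1.85 at 14 against 0 days and 2.26 at 7 against 0 days (limma adjusted p = 0.147 and 0.139). Its signals at 0 days were 64.6 and 12.2, so the size of both values depended on the low array 2. PDE2, the high-affinity phosphodiesterase of cyclic AMP, was at -0.20 and -0.05 in the same comparisons.

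Of 8 transcriptional regulators of trehalose genes, 1 rose at 14 against 3 days, where 4.59% of all genes were called, and 0 were called against 0 days in limma. At 3, 7 and 14 days against 0 days, 2, 2 and 1 of them had an unadjusted p under 0.05, as had 7.02%, 19% and 22.2% of all genes. MSN2, an activator of general stress genes, had signals of 473 and 786 at 14 days, against 79.1 and 202 at 3 days. It rose by 2.27 ± 0.54 in log2 units (SE, limma adjusted p = 0.0424). At 0 days MSN2 had 371 and 159, so it too was higher on array 1. YAP1, the activator of oxidative stress genes, was at 1.33 at 14 against 3 days (limma adjusted p = 0.0882).

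Of 11 genes of glycogen, the other storage carbohydrate, 2 rose at 14 against 3 days and 0 fell in limma, where 4.59% of all genes were called. Their median was 1.23, against 0.02 for all genes. GSY1, a glycogen synthase, had signals of 155 and 114 at 14 days, against 45.8 and 27.7 at 3 days (log2 fold change 1.90 ± 0.44 SE, limma adjusted p = 0.0372). GSY2, the second and main glycogen synthase, had 192 and 152 at 14 days, against 32.1 and 16.4 at 3 days (2.90 ± 0.66 SE, limma adjusted p = 0.0372). Against 0 days these genes were not called, at 1.40 for both at 14 days (limma adjusted p = 0.107 for GSY1 and 0.240 for GSY2), and 4 of the 11 had an unadjusted p under 0.05 (22.2% of all genes).

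In the list of 5 vacuolar genes near ATH1 in function, 0 were called in limma and 2 had an unadjusted p under 0.05 at 14 against 0 days (22.2% of all genes). The protease gene PEP4 was at 0.86 and PEP12, which acts in delivery to the vacuole, at 1.30 (limma adjusted p = 0.161 and 0.178). Of 5 chaperone genes that work beside trehalose in thermotolerance, 2 rose both at 14 against 0 days and at 14 against 3 days, where 1.73% and 4.59% of all genes were called. At 14 against 0 days 5 had an unadjusted p under 0.05 (22.2% of all genes). HSP42, a small heat shock protein, had signals of 3425 and 4863 at 14 days, against 1317 and 1097 at 0 days (log2 fold change 1.76 ± 0.36 SE, limma adjusted p = 0.0415). HSP12 was at 1.28 ± 0.26 SE in that comparison (limma adjusted p = 0.0381) and at 1.39 against 3 days (limma adjusted p = 0.0229).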

How the data were processed

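The deposited table gives each array 1 column of linear intensities per probe set, per the file headers. How the authors summarised and scaled probes is not given in the sources used here. Of 9335 probe sets, 60 controls were removed. A platform annotation gave 6504 of the rest exactly 1 gene, 328 several and 2443 none. Arrays were quantile normalised, values under the pooled 5th percentile (2.52) were set to that value, and the log2 of each was used. Probe sets with a mean under the 25th percentile (4.16, log2) were left out, and the brightest per gene was kept. Models used R 4.3.3 and limma 3.58.1, with 1 coefficient per time over 8 arrays (4 residual and 6.89 prior degrees of freedom), an intensity trend, two-sided tests and Benjamini-Hochberg adjustment over all genes. A gene was called at an adjusted p under 0.05. The script was tested on simulated data. No block was used, since the labels do not say what a replicate number shares across times.

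The text names the 7 genes, the 2 genes most like each, and up to 2 members of each of 7 pathway lists and of a list of mating genes with the smallest F test p. The genes and lists were chosen with earlier results of these data known. The labels call the duplicates independent without naming separate cultures, so p-values measure the spread between these samples. Alternatives changed the normalisation, floor, filter, probe set rule, moderation, weights, groups in the fit, block and each array in turn.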

Additional observations from a re-analysis of the deposited data

How the results depend on the processing

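The number of the 7 genes called moved from 0 in these settings. On deposited values with no normalisation it was 4 at 7 against 0 days and 1 at 14 against 0 days. It was 1 at 14 against 3 days and 3 in the F test. Of all 5191 genes tested there, 1422, 403, 295 and 871 were called in that order. The median of all genes was shifted to 0.98 at 7 against 0 days, 0.59 at 14 against 0 days and 0.25 at 14 against 3 days. At 14 against 3 days 1 of the 7 genes, TPS1, was also called with equal array medians (limma adjusted p = 0.0446), a pseudocount of 16 (0.0481), a filter at the median (0.0403), array weights (0.0294) and only the groups compared (0.0187). In those settings in turn, 177 of 5188, 304 of 5180, 332 of 3791, 378 of 5188 and 328 of 5188 genes were called. With the replicate number as a block 3 of the 7 genes were called in that comparison: TPS1, TPS2 and TSL1 (limma adjusted p = 0.0295, 0.0342 and 0.0318). Of all 5188 genes, 430 were called there. The block changed no other count of the 7 genes. Differences between duplicates correlated across genes at 0.178 to 0.292 among frozen times and at -0.088 to 0.086 between 0 days and the others. The labels do not say what a number shares across times, so the numbers were not taken as pairs. With array set as a block, added after the data were seen, the counts of the 7 genes did not move. Leaving out 1 array gave 0 to 1 called genes at 7 against 0 days, 0 to 2 at 14 against 0 days, 0 to 1 at 14 against 3 days and 0 to 2 in the F test. TPS1 at 14 against 3 days passed the threshold in 9 of 20 alternatives, with limma adjusted p from 0.0175 to 0.225.

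Signs turned only when 1 array was left out. At 3 against 0 days the values then ran from -0.31 to 0.95 for TPS3, -0.026 to 0.79 for NTH1, -0.26 to 0.67 for NTH2 and -0.094 to 1.96 for ATH1. At 7 against 0 days they ran from -0.29 to 1.77 for TPS1, -0.55 to 1.54 for TPS2, -2.21 to 0.93 for TPS3 and -1.12 to 1.69 for TSL1. At 14 against 0 days they ran from -0.47 to 1.62 for TPS2, -0.19 to 1.04 for TPS3 and -0.77 to 2.05 for TSL1, and at 14 against 3 days from -0.52 to 0.73 for TPS3 and -0.13 to 0.70 for NTH2. TPS3 and ATH1 were not tested with a filter at the median.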
